A study of Sus scrofa with 42 samples.

Results

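The genes described here encode parts of the adhesion and epithelial machinery that embryonic cells use when they compact. They were listed by name, as CDH1, CTNNB1, CTNNA1, KRT8, KRT18, TJP1, OCLN, EZR and PARD6B, and 7 of these 9 genes were found among the 15351 genes of the deposited expression table. KRT8 and KRT18, the keratin pair of simple epithelia, were not analysed here. All 7 genes passed the filter on low values (at least 1 FPKM in at least 3 cells), as did enough others that 8116 genes were tested.

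At compaction the loosely attached blastomeres of a cleaving embryo flatten against each other and take on an outer, apical side. E-cadherin binds between neighbouring cells and is tied to actin through the catenins, which makes the adherens junction; tight junction proteins then seal the outer cells, and the polarity proteins and ezrin build the apical surface from which trophectoderm later develops. Oocytes store transcripts of many of these genes, and in pigs the embryonic genome takes over around the 4- to 8-cell stage, before compaction.

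RNA was sequenced from 42 single cells of 20 pig embryos, grown from oocytes of gilts that had been matured in vitro. In the IVF groups the oocytes were fertilised with fresh semen, and in the PA groups (parthenogenetic activation, which leaves out the paternal genome) they were activated by an electric pulse and then kept in 6-DMAP and cytochalasin B, which retains the second polar body. Each method was sampled as whole 1-cell embryos at 19 h (3 embryos), as 6 blastomeres of 3 2-cell embryos at 27 h, as 9 blastomeres of 3 4-cell embryos at 48 h and as 3 blastomeres of a single 8-cell embryo at 72 h. The question was how transcript levels moved over these cleavages and whether they differed between IVF and PA.

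FPKM (fragments per kilobase of gene, scaled to the mapped reads of the cell) is the deposited unit, and an embryo's value is the mean FPKM of its sampled blastomeres. Where differences are given, they are log2 differences of embryo values after adding 1 FPKM, with the standard error (SE) and the Benjamini-Hochberg adjusted p of limma over all 8116 genes. A gene was called where the adjusted p was below 0.05 and the fold change was at least 2. Both 8-cell groups hold 1 embryo, whose spread was taken to be that of the other groups, and IVF and PA 8-cell embryos were set side by side without a test of their own. A difference between the methods in the step from the 4- to the 8-cell stage rests on the same 2 embryos. No source used here says that embryos of a group came from separate cultures, so the p-values measure the spread between these embryos.

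Several facts of the whole series touch the values below. Cells were compared by Pearson's r over log2 values of all tested genes. Blastomere 4 of PA 4-cell embryo 1 nearly repeated blastomere 2 of PA 2-cell embryo 1 (r = 0.9985). Blastomere 1 of PA 4-cell embryo 2 nearly repeated blastomere 1 of PA 2-cell embryo 2 (r = 0.9988). The highest of the other 859 pairs reached 0.908. Values of the 7 genes that use near-repeated cells are followed by values without them where these changed a call, a count or an order. The summed FPKM of 8 oocyte markers, among which ZP3, GDF9 and BTG4 are defining genes, lay between 854 and 1022 in IVF and between 827 and 1044 in PA 1-cell embryos, and between 6.96 and 197 in IVF and 1.56 and 87.1 in PA 8-cell blastomeres. Transcripts of 7 cumulus cell markers summed to between 0.02 and 30.2 FPKM over all cells. The median mitochondrial share of FPKM was 13.5% at the 1-cell and 45.2% at the 8-cell stage in IVF and 10.8% and 38.7% in PA, and relative depth differed by up to 4.046 times between cells. The part of these in the results was not tested.

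**Figure D1:**
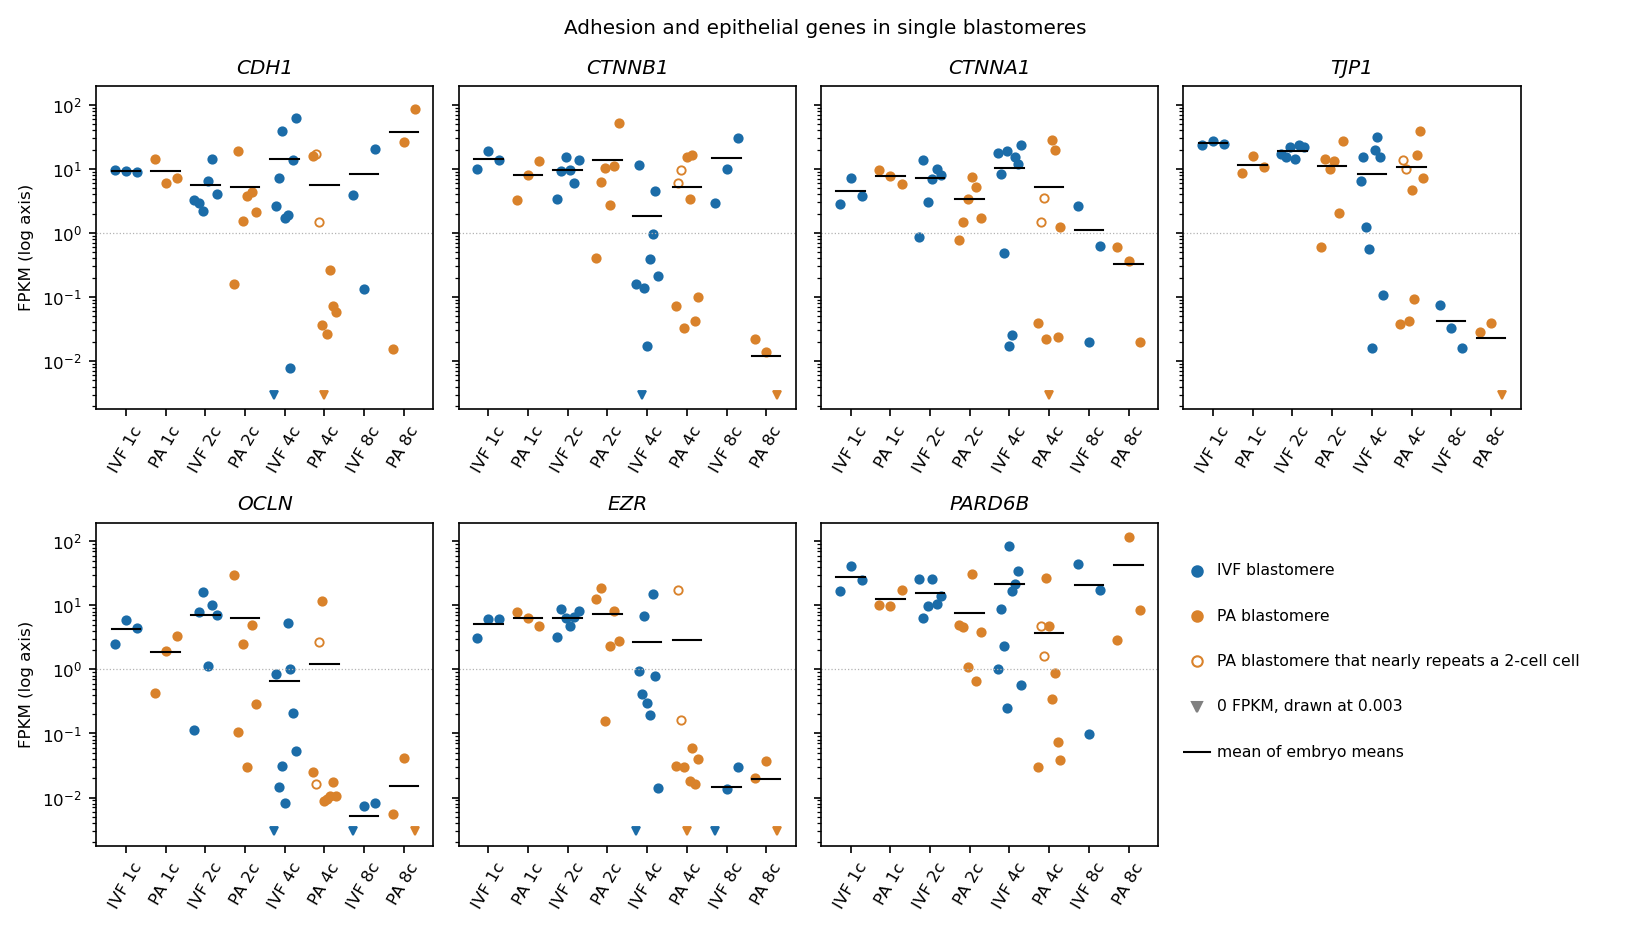
FPKM of the 7 genes (log axis, 1 panel a gene) in each of the 42 cells, ordered by method and stage. Blue points are IVF and orange points PA cells, hollow points are the 2 near-repeated PA 4-cell blastomeres, triangles are values of 0 drawn at 0.003, the black line is the mean of embryo means and the dotted line marks 1 FPKM. All 1-cell points but 1 (OCLN in a PA embryo) lie above the dotted line, while TJP1, OCLN and EZR lie below it in all 6 blastomeres of the 8-cell stage.

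TJP1 was the single gene of the 7 that passed the test. It encodes ZO-1, the scaffold that links tight junction proteins to actin, and lies on the minus strand of chr1:144930347-145196016 in Sscrofa11.1 (ENSSSCG00000004854). In IVF 1-cell embryos its level was 23.4, 27.4 and 24.8 FPKM, and in PA 1-cell embryos 8.66, 15.6 and 10.5 FPKM. The IVF 1-cell embryos all lay above the PA ones, although the difference of 1.09 (SE 0.81) on the log2 scale had an adjusted p of 1.00 in limma. The 2-cell embryos held 16.2, 18.1 and 22.5 FPKM in IVF embryos and 7.48, 11.6 and 14.5 FPKM in PA embryos. At the 4-cell stage the embryos spread out, at 7.73, 0.289 and 16.6 FPKM in IVF embryos and 7.02, 3.71 and 20.8 FPKM in PA embryos. At this stage 1 IVF embryo was nearly empty and the others were not. Without the near-repeated blastomeres PA embryo 1 stood at 0.0377 FPKM and PA embryo 2 at 1.63 FPKM, so PA embryo 1 was then nearly empty too.

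All 6 blastomeres of the 8-cell stage were nearly empty of TJP1. The IVF blastomeres had 0.0752, 0.0333 and 0.0160 FPKM, which the smallest steps of the table make 6, 7 and 3 reads, and the PA blastomeres had 0.0287, 0.0396 and 0 FPKM, or 8, 6 and 0 reads, where 1-cell embryos had 2573 to 6488 reads. Every 8-cell blastomere was below every 1- and 2-cell value. From the 1- to the 8-cell stage TJP1 fell by 4.65 (SE 1.14) in IVF, with a limma adjusted p of 0.0106, and by 3.59 (SE 1.14) in PA, with an adjusted p of 0.0426. In each comparison 1 of 7 genes was called, beside 14.3% of all tested genes in IVF (8.23% lower) and 13.8% in PA (6.21% lower), so the count does not set these genes apart from the rest. The median over all tested genes was -0.77 in IVF and -0.58 in PA.

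Against the 4-cell stage, with IVF and PA averaged, TJP1 fell by 2.84 (SE 0.81, limma adjusted p = 0.0241), again as 1 of 7 genes beside 12.6% of all tested genes, or 5.34% lower. These comparisons share the 8-cell embryos. The IVF call held without the near-repeated PA 4-cell blastomeres (adjusted p = 0.0337), while the PA call (adjusted p = 0.101) and the averaged call (-2.21, adjusted p = 0.185) did not. When cells were scaled to a common median over nuclear genes, TJP1 stayed lower in all 3 comparisons (-2.92, -2.23 and -3.24) but none was called (adjusted p 0.342, 0.533 and 0.0926). The PA call was also lost whenever a single PA 1-cell embryo was left out (adjusted p between 0.0649 and 0.0970).

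OCLN, encoding the tight junction membrane protein occludin, lies on the plus strand of chr16:47600180-47652445 (ENSSSCG00000021514). Its 1-cell levels were 2.49, 5.90 and 4.42 FPKM in IVF embryos and 0.425, 1.92 and 3.29 FPKM in PA embryos. Its 2-cell levels were 3.96, 8.70 and 8.60 FPKM in IVF embryos and 15.1, 1.24 and 2.61 FPKM in PA embryos, and the 15.1 came from a single blastomere with 30.2 FPKM. At the 4-cell stage the embryos stood at 0.290, 0.0195 and 1.66 FPKM in IVF embryos and 0.0207, 3.63 and 0.0130 FPKM in PA embryos. Each IVF 4-cell embryo lay below each IVF 2-cell embryo, while in PA the groups overlapped through embryo 2.

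The difference in OCLN from the 2- to the 4-cell stage, averaged over IVF and PA, measured -1.97 (SE 0.61), with a limma adjusted p of 0.0737, and in IVF -2.35 (SE 0.86), with an adjusted p of 0.164. At the 8-cell stage only 0, 1 and 1 reads were left in the IVF and 1, 4 and 0 reads in the PA blastomeres. Those are 0 to 0.0407 FPKM. OCLN reached 1 FPKM in 5 of 6 cells at the 1-cell stage, 8 of 12 at the 2-cell stage, 4 of 18 at the 4-cell stage and 0 of 6 at the 8-cell stage.

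EZR encodes ezrin, which anchors the actin cortex to the apical membrane, and lies on the plus strand of chr1:8403355-8452747 (ENSSSCG00000004058). At the 1-cell stage it stood at 3.14, 6.14 and 6.05 FPKM in IVF embryos and 7.81, 6.28 and 4.83 FPKM in PA embryos, and the 2 methods overlapped. At the 2-cell stage it stood at 5.93, 5.53 and 7.39 FPKM in IVF embryos and 15.5, 1.22 and 5.44 FPKM in PA embryos. The IVF embryos were close together at both stages, and the PA embryos were not at the second. The 4-cell embryos had 0.449, 3.60 and 3.99 FPKM in IVF embryos and 8.59, 0.0525 and 0.0385 FPKM in PA embryos.

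The 8.59 FPKM of PA 4-cell embryo 1 came from 1 of the near-repeated blastomeres, which had 17.1 FPKM. The next highest PA 4-cell blastomere had 0.162 FPKM and is the other near-repeat. The 7 remaining ones lay between 0 and 0.0595 FPKM. With all cells, EZR at the 4- against the 2-cell stage measured -1.50 (SE 0.90, limma adjusted p = 0.603) in PA and -1.33 (SE 0.64, adjusted p = 0.242) averaged over the methods.

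Without the near-repeated blastomeres, EZR fell from the 2- to the 4-cell stage in PA by 2.59 (SE 0.77, limma adjusted p = 0.0449), and averaged over the methods by 1.88 (SE 0.54, adjusted p = 0.0303). In the average OCLN fell as well, by 1.95 (SE 0.61, adjusted p = 0.0440). That makes 1 of 7 genes lower in PA, beside 6.26% of all tested genes, and 2 of 7 lower in the average, beside 9.07%. With all cells the same comparisons called 0 of 7 genes, beside 0.394% and 4.14% of all tested genes in either direction. They also called 0 of 7 when the 2-cell cell of each near-repeated pair was left out in place of the 4-cell cell: EZR then measured -1.58 (adjusted p = 0.50) in PA and -1.38 (adjusted p = 0.222) in the average, and OCLN -1.94 (adjusted p = 0.134) in the average. These data do not say which cell of a pair to leave out, and the EZR and OCLN calls rest on that choice. At the 8-cell stage EZR had 0, 1 and 2 reads in the IVF and 2, 2 and 0 reads in the PA blastomeres.

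CTNNB1 encodes beta-catenin, which binds the tail of E-cadherin and also carries the Wnt signal to the nucleus, and lies on the plus strand of chr13:25159603-25208313 (ENSSSCG00000011274). The 1-cell embryos had 9.84, 18.8 and 13.5 FPKM in IVF embryos and 3.23, 7.88 and 13.1 FPKM in PA embryos. The 2-cell embryos had 6.34, 12.4 and 9.94 FPKM in IVF embryos and 3.31, 6.48 and 31.4 FPKM in PA embryos, where 1 blastomere of embryo 3 reached 51.7 FPKM. IVF 4-cell embryos then held 3.89, 0.0776 and 1.51 FPKM, each below every IVF 2-cell embryo, and PA 4-cell embryos 3.07, 7.05 and 5.54 FPKM. Without the near-repeated blastomeres PA 4-cell embryo 1 held 0.0731 FPKM, below every IVF 4-cell embryo. The IVF step measured -2.12 (SE 0.80) with a limma adjusted p of 0.175. In it 0 of 7 genes were called, beside 1.11% of all tested genes. At the looser level of an unadjusted p under 0.05 stood 3 of 7. The share of all tested genes at that level is not given here, so the count does not set these genes apart.

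The 8-cell embryos then stood far apart in CTNNB1. The IVF blastomeres had 2.92, 10.1 and 30.8 FPKM, from 223, 2040 and 5531 reads, and the PA blastomeres had 0.0225, 0.0138 and 0 FPKM, from 6, 2 and 0 reads. The lowest IVF blastomere was far above the highest PA blastomere. Since each method is 1 embryo here, this gap cannot be told apart from a difference between 2 embryos. Compared with its own 4-cell embryos, CTNNB1 was higher by 2.72 (SE 1.13, adjusted p = 0.178) in IVF and lower by 2.56 (SE 1.13, adjusted p = 0.193) in PA.

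The IVF step minus the PA step from the 4- to the 8-cell stage was 5.29 (SE 1.60) for CTNNB1, with a limma adjusted p of 0.0862. Each 8-cell arm is 1 embryo with a borrowed spread, so this value compares 2 embryos as much as 2 methods. Among the 7 genes 0 were called in this difference of steps, beside 2.86% of all tested genes. At the looser level of an unadjusted p under 0.05 stood 2 of 7, with no share of all tested genes at that level given here. The CTNNB1 difference was called when IVF 4-cell embryo 1, the highest IVF 4-cell embryo, was left out (5.81, adjusted p = 0.0419). Leaving out any other embryo gave no call.

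CDH1 encodes E-cadherin, the adhesion molecule of the adherens junction, and lies on the minus strand of chr6:18039318-18155990 (ENSSSCG00000025652), where TANGO6 overlaps it on the same strand. Its 1-cell levels were 9.60, 9.35 and 8.93 FPKM in IVF embryos and 14.1, 5.99 and 7.21 FPKM in PA embryos. Its 2-cell levels were 3.13, 4.33 and 9.22 FPKM in IVF embryos and 9.63, 2.67 and 3.21 FPKM in PA embryos. The methods overlapped at both stages. At the 4-cell stage IVF embryos had 3.27, 20.1 and 19.7 FPKM and PA embryos 16.3, 0.393 and 0.132 FPKM. Without the near-repeated blastomeres the PA embryos ran from 0.0211 through 0.132 to 15.7 FPKM, with embryo 2 the lowest.

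CDH1 also varied widely between sister cells. The 9 IVF 4-cell blastomeres ran from 0 through a median of 2.61 to 62.9 FPKM, and the 9 PA 4-cell blastomeres from 0 through a median of 0.0724 to 16.9 FPKM, the last in a near-repeated cell. Apart from the near-repeats, a single PA blastomere (15.7 FPKM) was above 0.264 FPKM. The 8-cell blastomeres had 3.93, 0.134 and 20.6 FPKM in IVF embryos and 0.0152, 26.7 and 87.3 FPKM in PA embryos. In both embryos 1 blastomere was thus far below its sisters, and the embryo means were 8.22 and 38.0 FPKM.

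In PA the step to the 8-cell stage measured 3.70 (SE 1.30) for CDH1, with a limma adjusted p of 0.0848. It was called without PA 4-cell embryo 1 (4.96, adjusted p = 0.0075), by far the highest PA 4-cell embryo in CDH1, and on leaving out no other embryo. IVF exceeded PA at the 4-cell stage by 2.03 (SE 0.92), which did not pass either (adjusted p = 0.326). For CDH1 the IVF step from 4- to 8-cell minus the PA step was -4.11 (SE 1.84, adjusted p = 0.299). In the PA step 0 of 7 genes were called, beside 9.99% of all tested genes. At the looser level of an unadjusted p under 0.05 stood 4 of 7, CDH1 and PARD6B upward, CTNNB1 and TJP1 downward. The share of all tested genes at that level is not given here, so the count does not set these genes apart.

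CTNNA1 encodes alpha-catenin, the link from beta-catenin to actin, and lies on the plus strand of chr2:140682371-140873347 (ENSSSCG00000014339), with LRRTM2 inside it on the other strand. The 1-cell embryos had 2.79, 7.16 and 3.74 FPKM in IVF embryos and 9.74, 7.74 and 5.77 FPKM in PA embryos. In IVF it was then 7.33, 4.97 and 9.08 FPKM at the 2-cell and 8.71, 9.64 and 12.7 FPKM at the 4-cell stage, and in PA 1.14, 5.46 and 3.50 FPKM and 0.753, 7.86 and 7.07 FPKM. IVF 4-cell embryos lay above all but embryo 3 of the IVF 2-cell stage, without a call.

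At the 8-cell stage CTNNA1 stood at 2.68, 0.0199 and 0.625 FPKM in the IVF and 0.604, 0.359 and 0.0198 FPKM in the PA blastomeres. The IVF embryo mean of 1.11 FPKM lay below all IVF 4-cell embryos, and the PA mean of 0.328 FPKM below all PA ones. Without the near-repeated blastomeres PA 4-cell embryo 1 stood at 0.0394 FPKM, so the PA 8-cell mean was then above it. Averaged over the methods the step measured -2.16 (SE 0.72) with a limma adjusted p of 0.0561. It was called without IVF 4-cell embryo 2 (adjusted p = 0.0430) or without PA 4-cell embryo 1 (adjusted p = 0.0141), the lowest PA 4-cell embryo. Leaving out any other embryo gave no call. In the IVF step 0 of 7 genes were called, beside 6.97% of all tested genes. At the looser level of an unadjusted p under 0.05 stood 3 of 7, with no share of all tested genes at that level given here. These were CTNNB1 upward and CTNNA1 and TJP1 downward. Of these, TJP1 was called without IVF 4-cell embryo 2 (-3.57, adjusted p = 0.0132), the IVF 4-cell embryo with the least TJP1.

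PARD6B encodes an adaptor of the PAR complex, which sets up the apical domain together with atypical protein kinase C, and lies on the plus strand of chr17:52156340-52213850 (ENSSSCG00000027206), where RIPOR3 overlaps it on the other strand. Its 1-cell levels were 16.6, 40.5 and 24.9 FPKM in IVF embryos and 10.3, 9.86 and 17.7 FPKM in PA embryos. Its 2-cell levels were 16.2, 17.8 and 12.2 FPKM in IVF embryos and 4.83, 15.8 and 2.23 FPKM in PA embryos. IVF embryos were mostly the higher ones, and the methods overlapped at both stages. The 4-cell embryos had 4.00, 43.0 and 18.3 FPKM in IVF embryos and 2.37, 8.35 and 0.336 FPKM in PA embryos. Without the near-repeated blastomeres the PA embryos ran from 0.0302 through 0.336 to 10.6 FPKM, with embryo 1 the lowest.

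PARD6B was the gene that most blastomeres still carried at the 8-cell stage, where 5 of 6 reached 1 FPKM. The IVF blastomeres had 44.1, 0.0979 and 17.4 FPKM, and the PA blastomeres 2.87, 116 and 8.62 FPKM. In PA all 3 were above the mean of PA 4-cell embryo 1, and the embryo mean of 42.5 FPKM exceeded every PA 4-cell embryo. The step measured 3.64 (SE 1.20) in PA with a limma adjusted p of 0.0617. It was called without PA 4-cell embryo 2 (4.36, adjusted p = 0.0243), the highest PA 4-cell embryo, and on leaving out no other embryo. Averaged over the methods it was 2.03 (SE 0.85, adjusted p = 0.137).

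**Figure D2:**
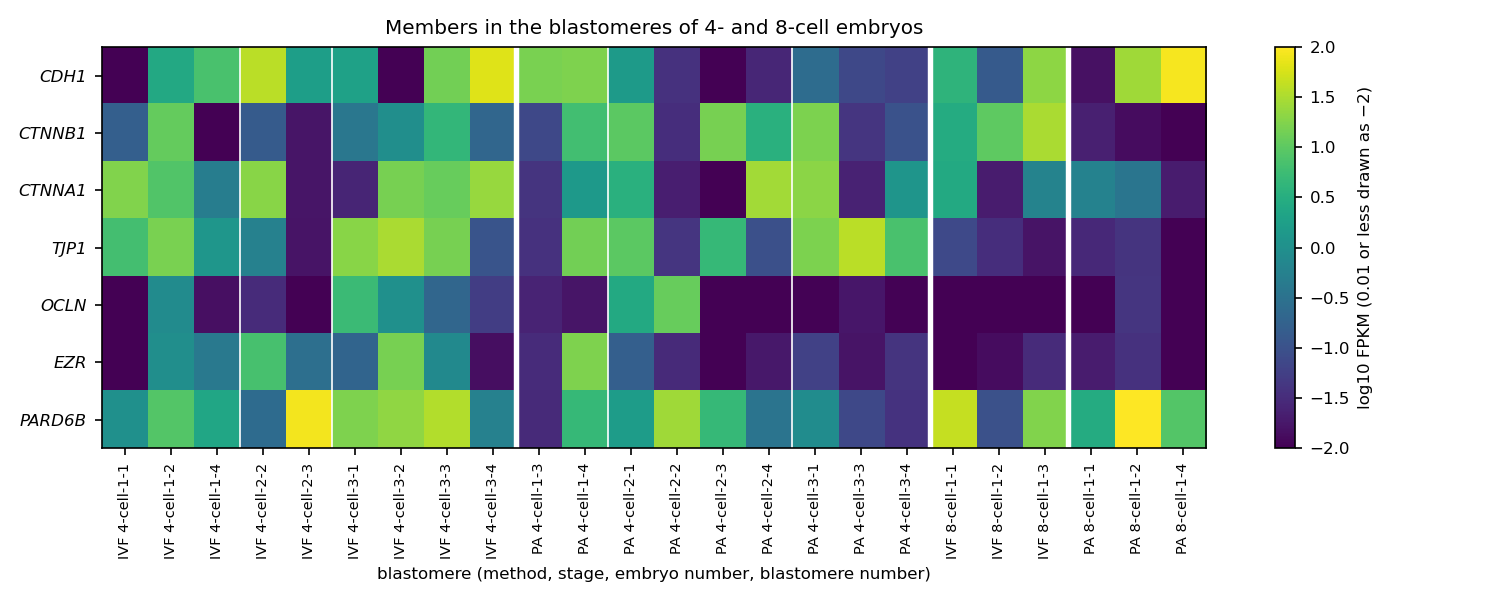
Heat map of log10 FPKM of the 7 genes in the 24 blastomeres of 4- and 8-cell embryos, with values of 0.01 or less drawn as -2 and the highest (116 FPKM) drawn as 2. Columns are blastomeres, thick white lines part the groups of method and stage, and thin lines part the embryos. TJP1, OCLN and EZR are dark in all 6 columns of the 8-cell stage, CTNNB1 is dark there in the 3 PA columns alone, and within 4-cell embryos bright and dark sisters stand side by side.

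The 7 genes were unequally detected at the 8-cell stage. The tight junction pair TJP1 and OCLN and the cortical linker EZR reached 1 FPKM in 0 of 6 blastomeres, CTNNA1 in 1, CTNNB1 in 3, CDH1 in 4 and PARD6B in 5. Of all 8116 tested genes 44.1% reached it in 0 of the 6 blastomeres and 21.9% in 1, so a low count is common in the table, while 5.2% reached it in 4 and 3.6% in 5. At the 1-cell stage all 7 had reached it in all 6 embryos, except OCLN, with 5. At the 2-cell stage the counts were 11 of 12 cells for CDH1, CTNNB1, TJP1, EZR and PARD6B, 10 for CTNNA1 and 8 for OCLN. At the 4-cell stage they were 12 of 18 for TJP1, 11 for CTNNA1 and PARD6B, 10 for CDH1, 7 for CTNNB1, 4 for OCLN and 3 for EZR, and without the near-repeats 10 of 16 for TJP1, 9 for CTNNA1 and PARD6B, 8 for CDH1, 5 for CTNNB1, 3 for OCLN and 2 for EZR.

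Counted per cell, a 1-cell embryo had a median of 7 of the genes at 1 FPKM or more (6 to 7), a 2-cell blastomere 6 (3 to 7), a 4-cell blastomere 3 (1 to 6) and an 8-cell blastomere 2 (1 to 4). Over the same stages the median share of all 8116 tested genes at 1 FPKM or more was 58.9%, 46.8%, 24.6% and 22.0%. Fewer detected genes were thus a feature of the whole table. IVF and PA 4-cell blastomeres had medians of 3 (2 to 5) and 2 (1 to 6), and without the near-repeats the PA range was 1 to 3.

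**Figure D3:**
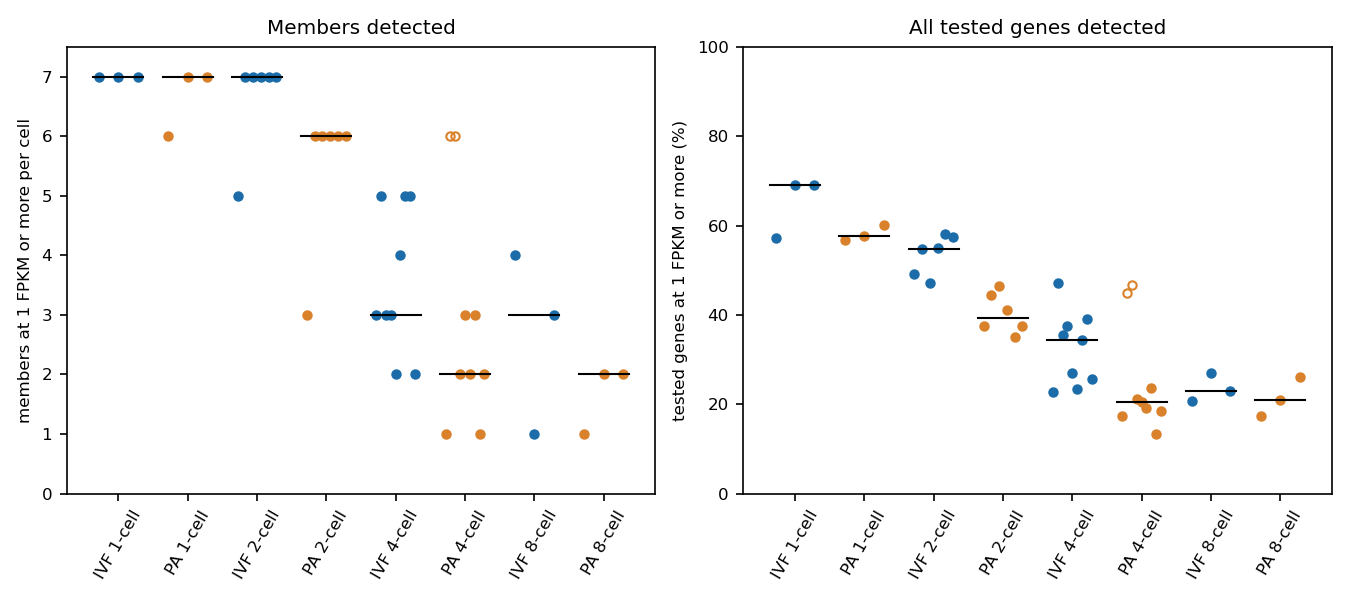
Left, number of the 7 genes at 1 FPKM or more in each cell. Right, percent of the 8116 tested genes at 1 FPKM or more in the same cells. Points are cells in the 8 groups of method and stage and the line is the group's median. Both measures are lower at the 4- than at the 1-cell stage in IVF and PA.

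Sister blastomeres often lay on both sides of 1 FPKM at the 4-cell stage. Of the 42 combinations of a 4-cell embryo and a gene, 26 (61.9%) had sampled sisters on both sides of 1 FPKM, against 43.4% over all tested genes, and without the near-repeats 20 of 35 (57.1%) against 40.2%. At the 2-cell stage 11 of 42 (26.2%) were split, against 26.3% over all tested genes, and at the 8-cell stage 4 of 14 (28.6%) against 34.3%. These stages differ in how many sisters were sampled (2 at the 2-cell, 2 to 4 at the 4-cell and 3 at the 8-cell stage), and more sisters make a split likelier. Counted by pairs of sisters, which does not depend on that number, the 7 genes were split in 26.2% of pairs at the 2-cell and 43.6% at the 4-cell stage (40.2% without the near-repeats), against 26.3% and 29.8% (27.9%) over all tested genes. At the 8-cell stage 8 of 42 pairs of sisters times genes were split, against 22.9% over all tested genes. No test was made of these shares. A gene below 1 FPKM in nearly all cells is seldom split. The tested genes were not matched to the 7 in how often they reached 1 FPKM, so the shares do not set the 7 apart. CTNNA1 was split in all 6 of the 4-cell embryos and CTNNB1 in 5, PARD6B in 4, CDH1, TJP1 and EZR in 3 each and OCLN in 2. In IVF 4-cell embryo 3, for example, CTNNA1 was at 0.0257, 15.2, 11.7 and 23.9 FPKM in the 4 sisters. TJP1 was at 19.6, 31.5, 15.1 and 0.109 FPKM in the same cells. There the blastomere with the most CTNNA1 had the least TJP1, which held in no other 4-cell embryo. In IVF 4-cell embryo 2 the blastomere with more CTNNA1 (19.3 against 0.0170 FPKM) also had more TJP1 (0.563 against 0.0162 FPKM). Over the 20 embryos Pearson's r of CTNNA1 with TJP1 was 0.43 on the log2 scale.

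A single gene came to make up most of the summed FPKM of the 7. Its share had a median of 28.6% (26.1 to 35.1%) in 1-cell embryos, 33.1% (23.7 to 61.0%) in 2-cell blastomeres, 61.5% (28.4 to 99.4%) in 4-cell blastomeres and 81.5% (44.3 to 97.1%) in 8-cell blastomeres. In 11 of 18 4-cell and 5 of 6 8-cell blastomeres 1 gene exceeded 50%, compared with 0 of 6 and 3 of 12 at the earlier stages. Without the near-repeats the count at the 4-cell stage was 11 of 16. No such share was computed for other sets of genes, so it does not set these 7 apart from the rest. FPKM is corrected for gene length, so levels of different genes may be compared here.

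Between the 1- and the 2-cell stage none of the 7 genes was called, and none had an unadjusted p under 0.05 in limma in either method. In IVF the test called 0% of all genes (216 had an unadjusted p under 0.05) and in PA 0.0986%.

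Between IVF and PA, PARD6B had the lowest unadjusted p of the 7 genes over the 1- to 4-cell stages (0.0064). Its embryo values over the 1- to 4-cell stages ran from 4.00 to 43.0 FPKM in IVF and from 0.336 (0.0302 without the near-repeats) to 17.7 FPKM in PA. IVF exceeded PA by 1.02 at the 1-cell, 1.25 at the 2-cell and 2.22 at the 4-cell stage (SE 0.85 each), with adjusted p of 1.00, 0.953 and 0.230, and by 1.50 (SE 0.49, adjusted p = 0.194) over the 3 stages. Both the 4-cell difference (3.07, adjusted p = 0.0395) and the average (1.78, adjusted p = 0.0486) were called when IVF 4-cell embryo 1, the lowest IVF embryo, was left out.

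In the comparisons of IVF with PA limma called 0 of the 7 genes at any stage. The share of all tested genes called was 0.0493% at the 1-cell stage, 0% at the 2-cell stage (441 had an unadjusted p under 0.05), 0.554% at the 4-cell stage and 0.037% over the 3 stages. At an unadjusted p under 0.05 stood 0, 0, 2 and 1 of the 7 genes, the pair at the 4-cell stage being CDH1 and PARD6B. Beside the 2 and the 1 no share of all tested genes at that level is given here. The step from the 2- to the 4-cell stage did not differ between methods for any of the 7 at an unadjusted p under 0.05, beside 0% called of all tested genes (434 with an unadjusted p under 0.05).

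**Figure D4:**
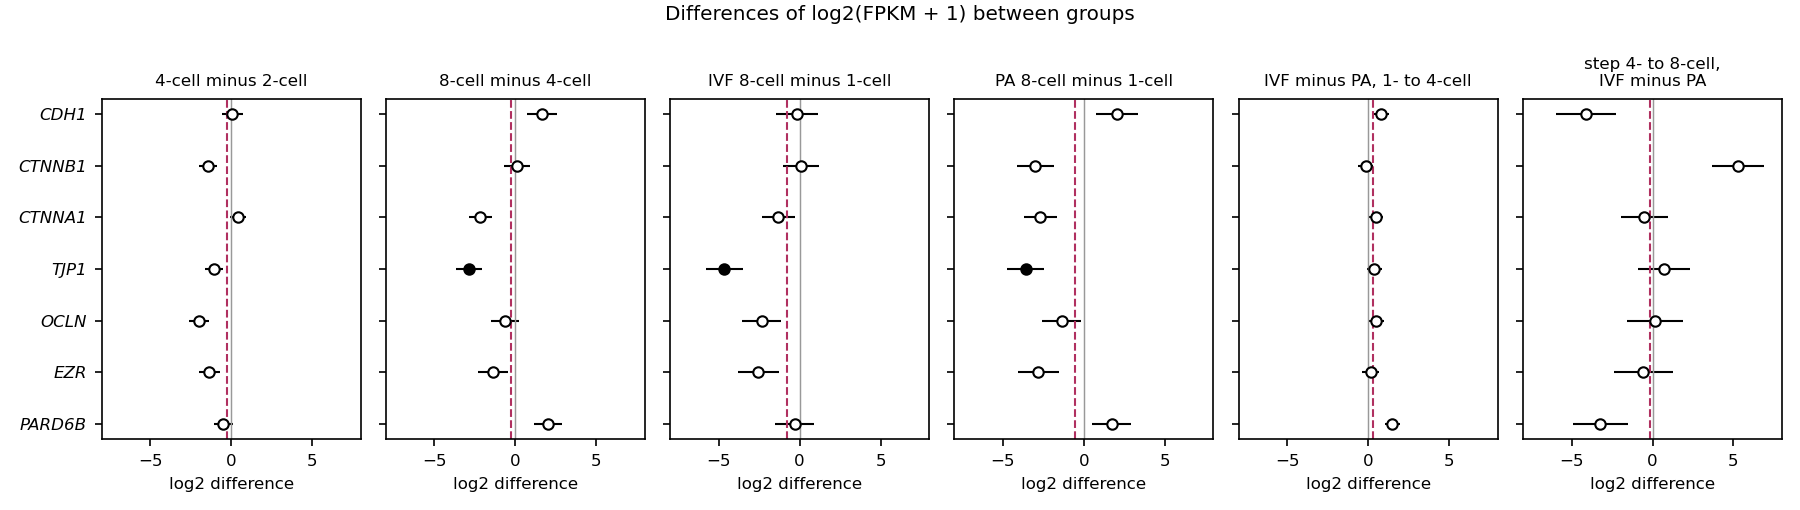
Log2 difference of embryo FPKM (after adding 1) for each of the 7 genes in 6 comparisons of stages or methods. Points are limma estimates with bars of 1 SE, filled points are called genes, and the dashed line is the median of all 8116 tested genes. The filled points are TJP1 alone, at -4.65, -3.59 and -2.84, and in the difference of the 4- to 8-cell steps CTNNB1 (5.29) and CDH1 (-4.11) lie farthest apart.

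The directions at the 8-cell stage depend in part on scaling. After each cell was scaled to a common median over 1064 nuclear genes, the median of all tested genes moved from -0.77 to -0.06 in the IVF comparison of the 8- with the 1-cell stage and from -0.58 to -0.11 in PA. In the IVF comparison higher and lower calls went from 489 and 668 to 1503 and 118, and in PA from 615 and 504 to 1714 and 116. CDH1, CTNNA1 and PARD6B then changed sign in IVF, to 3.17, 1.33 and 3.34, while TJP1 stayed negative. PARD6B was called higher in PA under this scaling, against the 1-cell stage (5.78, adjusted p = 0.0052) and against the 4-cell stage (6.14, adjusted p = 0.0040).

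Other genes of these structures came from 5 lists of 78 names (adherens junction, tight junction, apical-basal polarity, apical cortex with actomyosin, and keratins with desmosomes), of which 65 were in the table and 39 were tested. Between the 1- and 8-cell stage 2 of 39 were called higher and 7 lower in IVF, and 2 higher and 1 lower in PA. Of all tested genes 14.3% and 13.8% were called in either direction, 8.23% and 6.21% lower. From the 2- to the 4-cell stage, averaged over the methods, 0 were higher and 3 lower, beside 4.14% of all tested genes in either direction. Within either method 0 were called, beside 1.11% of all tested genes in IVF and 0.394% in PA. From the 4- to the 8-cell stage, again averaged, 3 were higher and 0 lower, beside 12.6% of all tested genes in either direction (5.34% lower). Within the methods this step called 1 higher and 1 lower in PA, and 0 in IVF, beside 9.99% and 6.97% of all tested genes. In the keratin and desmosome list only 1 of the 14 names was tested. Calls of list genes, here and below, come from the fit with all cells. They were not followed without the near-repeated cells, under another scaling or through the other alternatives.

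RDX, encoding radixin, a close relative of ezrin, fell like TJP1 in both methods. It was at 26.4, 39.0 and 40.1 FPKM in IVF 1-cell and 24.5, 31.3 and 34.9 FPKM in PA 1-cell embryos, and at 1.37 and 0.799 FPKM in the 8-cell embryos. The differences were -3.91 (SE 0.98, limma adjusted p = 0.0117) and -4.10 (SE 0.98, adjusted p = 0.0088), and averaged over the methods it fell from the 2- to the 4-cell stage (-2.12, adjusted p = 0.0192), without a call within either method.

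Of the tight junction list, CLDN1 fell from the 1- to the 8-cell stage in IVF (-4.86, limma adjusted p = 0.0165), as did CLDN12 (-3.94, adjusted p = 0.0201), and averaged over the methods both fell from the 2- to the 4-cell stage (-2.30 and -2.01, adjusted p = 0.0497 and 0.0410), without a call within either method. Both encode claudins, the strand-forming proteins of tight junctions. CLDN6, another claudin, was called higher in IVF over this span (adjusted p = 0.0049): it was listed at 0 in all IVF 1-cell embryos and at 47.9 FPKM in the 8-cell embryo, and IVF 4-cell embryo 2 already had 34.9 FPKM. PA embryos listed CLDN6 at 0 up to the 4-cell stage and at 1.90 FPKM in the 8-cell embryo.

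In the polarity and cortex lists, PARD3B (-4.55, limma adjusted p = 0.0292), PATJ (-3.72, adjusted p = 0.0316) and the kinase gene ROCK2 (-4.19, adjusted p = 0.0277) fell in IVF over the same span, as did CTNND1 (-2.78, adjusted p = 0.0234), which encodes p120 catenin. MYH9, a non-muscle myosin heavy chain gene, rose in IVF by 3.24 (adjusted p = 0.0025), to 9.28 FPKM. In PA SLC9A3R1, whose protein binds ezrin, rose by 4.53 (adjusted p = 0.0261). ROCK1 fell in PA from the 4- to the 8-cell stage by 2.80 (adjusted p = 0.0463), and LIN7C, a polarity gene, rose in the average by 3.07 (adjusted p = 0.0459).

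The patterns of the 7 genes over the 20 embryos were only loosely alike. On the log2 scale Pearson's r was 0.57 for EZR with OCLN, 0.56 for OCLN with TJP1, 0.56 for CDH1 with PARD6B, 0.55 for CTNNB1 with TJP1 and -0.48 for CDH1 with CTNNB1. Among all tested genes the closest to TJP1 was DYNLL2 by name (0.93), beside a gene without a name, ENSSSCG00000027041 (0.94). The closest named genes were TRIM37 (0.82) for CTNNB1, SLC35B2 and CCSER2 (0.86 each) for CTNNA1, RMDN1 (0.86) and SERTAD2 (0.85) for OCLN, WTAP and TBX18 (0.90 each) for EZR, and ADIPOR2 and VTA1 (0.85 each) for PARD6B. For CDH1 the closest were the unnamed ENSSSCG00000031636 (0.81) and ENSSSCG00000029857 (0.80). Without the near-repeated 4-cell blastomeres r was 0.70 for EZR with OCLN, 0.58 for OCLN with TJP1, 0.42 for CDH1 with PARD6B, 0.63 for CTNNB1 with TJP1 and -0.47 for CDH1 with CTNNB1. The closest genes were then FANCB and QKI (0.77 each) for CDH1, ENSSSCG00000005101 and DCLRE1A (0.94 each) for TJP1 and ENSSSCG00000020710 and RPL15 (0.86 each) for PARD6B, while TRIM37 (0.87), SLC35B2 (0.87), RMDN1 (0.86) and WTAP (0.93) were still among those of CTNNB1, CTNNA1, OCLN and EZR. These values are descriptions over 20 embryos that share a library procedure and stages.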

How the data were processed

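Single cells were lysed and their cDNA amplified by the authors with Ansuper-seq, a method not limited to polyadenylated RNA, and sequenced as 150 bp pairs on a HiSeq X-Ten; the extraction text in the labels describes another procedure. The authors mapped reads to Sscrofa11.1 with Hisat2, used StringTie and HTSeq, and deposited FPKM for 15351 genes in 42 cells. Tool versions and strandedness are not given in the sources used here, so reads where CDH1, CTNNA1 and PARD6B overlap other genes are uncertain.

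Groups came from the labels, and blastomeres were averaged by embryo. log2(FPKM + 1) of 8116 genes was fitted over all 8 groups with limma 3.58.1 (mean-variance trend) in R 4.3.3, and genes at an adjusted p below 0.05 that changed at least 2-fold were called. This understates changes of low values. The fit was tested on simulated data. Depth was not used in tests. The smallest steps in FPKM, taken as 1 read, gave whole reads for low values (59 of 59 values of 1 to 12 reads in these genes were within 0.1 of a whole number); FPKM of 1 read was 0.0031 to 0.0359, and amplified reads are not independent molecules. No count test was run, since the unit is FPKM.

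Alternatives were another pseudocount, no filter on low values, median-ratio scaling, averaging on the log2 scale, blastomeres with the embryo as a random effect, the compared groups alone, a replicate block, leaving out near-repeated cells, and leaving out each embryo. The genes, the lists, the rule for named genes (the genes above, up to 4 called genes of each list and comparison, and the 2 genes most like each) and the near-repeated cells were chosen with earlier results of these data known. The result of 1 called gene of the lists is not reported here.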

Additional observations from a re-analysis of the deposited data

Results flagged for a closer look

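In 13 of the 28 groups of 6 or 9 blastomeres times genes tested (46.4%), the highest blastomere stood apart from its group by Dixon's test, where chance alone flags about 1 in 20; sisters of 1 embryo are not independent, and the test assumes an even spread that these values do not have. All 13 were high values in 2- or 4-cell blastomeres. The share flagged over all tested genes was not computed, so 46.4% does not set these genes apart from the rest.

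Among IVF blastomeres, CDH1 reached 14.3 FPKM in blastomere 1 of 2-cell embryo 3, with 6.47 FPKM in the next. In the IVF 4-cell group CTNNB1 reached 11.5 FPKM in blastomere 2 of embryo 1 (next 4.48), OCLN 5.35 FPKM in blastomere 1 of embryo 3 (next 1.01), EZR 14.9 FPKM in blastomere 2 of embryo 3 (next 6.90) and PARD6B 85.8 FPKM in blastomere 3 of embryo 2 (next 34.5). These stood in 4 different cells.

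Among PA 2-cell blastomeres, CDH1 reached 19.1 FPKM in blastomere 2 of embryo 1 (next 4.29), OCLN 30.2 FPKM in its sister (next 4.92), PARD6B 30.6 FPKM in blastomere 2 of embryo 2 (next 4.99) and CTNNB1 51.7 FPKM in blastomere 2 of embryo 3 (next 11.2). In the PA 4-cell group OCLN (11.9 FPKM, next 2.66) and PARD6B (26.7 FPKM, next 4.74) peaked in the same cell, blastomere 2 of embryo 2. TJP1 reached 39.0 FPKM in blastomere 3 of embryo 3 (next 16.4). EZR reached 17.1 FPKM in blastomere 4 of embryo 1 (next 0.162), a near-repeated cell.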

How the results depend on the processing

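Of 252 counts of called genes under an alternative, over 16 comparisons, 212 stayed within 1.5 times the reported count and 40 did not. A count that stayed may hold another gene. Of the 25 differences of single genes followed through the alternatives (363 values), 315 kept their direction and side of the threshold. Another 32 passed it anew, 15 lost it and 1 reversed (CTNNA1, PA 8- against 1-cell, 0.012 under median-ratio scaling in place of -2.70). Called at the start were only the TJP1 differences of IVF and PA 8- against 1-cell and of the averaged 8- against 4-cell step. The 15 losses were all theirs, and most values that kept their side were uncalled in both fits. Of the differences not followed there, CDH1, CTNNA1 and PARD6B changed sign in IVF 8- against 1-cell under that scaling, to 3.17, 1.33 and 3.34. Except where a sentence says otherwise, the causes were not tested.

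From 0 called genes, the IVF 4- against 2-cell count went to 1 (CTNNB1) on averaging log2 values or with the random effect, the IVF 8- against 4-cell count to 1 with median-ratio scaling, the PA 4- against 2-cell count to 1 (EZR) without the near-repeated 4-cell blastomeres, the PA 8- against 4-cell count to 2 with a pseudocount of 0.1 and to 1 with median-ratio scaling, and the averaged 4- against 2-cell count to 3 on averaging log2 values or with the random effect and to 2 without the near-repeated 4-cell blastomeres. The difference of the 4- to 8-cell steps went from 0 to 1 (CTNNB1) with a pseudocount of 0.1, without the filter and with median-ratio scaling.

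From 1 called gene (TJP1), the IVF 8- against 1-cell count went to 0 with median-ratio scaling. The PA 8- against 1-cell count went to 2 with a pseudocount of 0.1 or averaged log2 values, to 3 with the compared groups alone, and to 0 without the filter, with the random effect and without the near-repeated cells of either stage. The averaged 8- against 4-cell count went to 2 with a pseudocount of 0.1 or without the filter, and to 0 on averaging log2 values, with the compared groups alone and without the near-repeated cells of either stage. With median-ratio scaling the PA 8- against 1-cell count and the averaged 8- against 4-cell count stayed at 1 but changed gene. PARD6B, higher by 5.78 and 4.34, was then called in place of TJP1. Leaving out the 2-cell cells of each near-repeated pair was chosen after seeing the data.

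Leaving out each embryo in turn gave counts of 0 to 1 for IVF and for PA 8- against 4-cell, for the averaged 4- against 2-cell step (OCLN without PA 4-cell embryo 2, adjusted p = 0.0325), for the 2 methods at the 4-cell stage and over the stages, and for the difference of the 4- to 8-cell steps. It gave 1 to 1 for IVF 8- against 1-cell, 0 to 0 for PA 8- against 1-cell and 1 to 3 for the averaged 8- against 4-cell step. The only embryo of an 8-cell group could not be left out.

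With the embryo number as a replicate block, the PA 8- against 4-cell count was 1 (PARD6B, 4.09, adjusted p = 0.0256) and the PA 8- against 1-cell count was 0 (TJP1, -3.46, adjusted p = 0.0529), and no other count of these genes changed. No source used here says what embryos of the same number share. The 45 pairs of the same number had correlations of their deviations from -0.041 to 0.355 (median 0.008). The other 90 pairs ran from -0.266 to 0.113 (median -0.003). Of 18 embryos 14 were most like one of their number, among them those holding near-repeated cells. Whether the numbers mark a shared batch was not tested.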
